A study of Mus musculus with 63 samples.

Results

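The 10 genes described here were 8 cathepsins (Ctsa, Ctsb, Ctsc, Ctsd, Ctsh, Ctsl, Ctss and Ctsz), legumain (Lgmn) and cystatin C (Cst3). They were chosen by name from the 56980 gene IDs of the deposited count tables, and each of the 10 symbols had a single gene ID in the tables. Whole-transcriptome RNA-seq was done on 4 populations sorted by fluorescence from the cortex of female C57BL/6J mice that were 12 weeks old when first housed, before surgery. To ask whether a non-severe burn leaves a lasting mark on cortical cells, burn mice received a full thickness thermal burn of about 7 to 8% of the total body surface area on the right flank, sham mice were shaved and not burned, and tissue was taken 5 weeks later. Mice of both groups had the same brain surgery, in which AAVs carrying eGFP under the CaMKII promoter and mRuby2 under the mDlx enhancer were injected into both primary motor cortices. CaMKII positive cells (eGFP only, labelled excitatory neurons) and CaMKII-mDlx double-positive cells (labelled inhibitory neurons) came from the motor cortex, whereas ACSA2-positive cells (labelled astrocytes) and CD11b-positive cells (labelled microglia) were stained with antibodies in cortex caudal to it. Cortical region and gate therefore cannot be told apart where virus-labelled cells are set against antibody-labelled cells.

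Cathepsins are proteases that are made as inactive precursors and work mainly in the acid interior of endosomes and lysosomes. Ctsb, Ctsl, Ctss, Ctsh, Ctsc and Ctsz encode cysteine proteases, Ctsd an aspartic protease and Ctsa a serine carboxypeptidase, while Lgmn encodes an asparaginyl endopeptidase that helps to mature several cathepsins, and Cst3 a secreted inhibitor of cysteine cathepsins. In brain these enzymes are best known from microglia, the resident phagocytes, whereas cystatin C is also made in quantity by astrocytes.

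The analysis used 58 of the 63 deposited libraries, from 17 of 18 mice in 3 sequencing batches, and total counts ran from 13346143 to 134703744 with a median of 24339895.5. All libraries of mouse 3, which had skin ulceration, were left out, and so was a double-positive library of only 331215 counts from mouse 8. Burn and sham libraries numbered 4 and 6 for CaMKII positive, 9 and 7 for double-positive, 9 and 8 for ACSA2-positive, and 8 and 7 for CD11b-positive cells. Each library came from a single mouse, and most mice gave several populations. Of the marker lists, the 8 microglia genes (P2ry12, Tmem119, Csf1r, Cx3cr1, Sall1, Siglech, Fcrls and Gpr34) summed to 16700 to 27070 CPM (a gene's share of the library total times 1000000) in CD11b-positive libraries and the 8 astrocyte genes to 35410 to 50210 CPM in ACSA2-positive libraries. The virus-labelled libraries went against their labels. Double-positive libraries held 13440 to 26260 CPM of the microglia genes and only 0.800 to 3.76 CPM of 8 inhibitory neuron genes. CaMKII positive libraries held 12940 to 24790 CPM of the astrocyte genes, 3613 to 10230 CPM of 6 endothelial genes, 319 to 1440 CPM of the microglia genes and 27.3 to 448 CPM of 6 excitatory neuron genes. The populations are therefore called by their gate below. In sorted bulk samples, fewer cells of a type and less RNA per cell cannot be told apart.

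Promoters of 8 of the 10 genes matched RefSeq windows on GRCm38.p6 (10 windows of 250 bases upstream of the start, since Ctsa and Lgmn each had a pair). The windows were searched on both strands for an E-box (CACGTG), for the longer palindrome of the lysosomal CLEAR element (the E-box with GT before it and AC after it), and for an ETS box of the type bound by the myeloid factor PU.1 (GAGGAAGT). The windows of Ctsd, Ctsc and Ctss are printed 5′ to 3′ on the gene's strand because Ctss and Ctsc took 3 levels over the populations and Ctsd only 2, with the matches in capitals. Each ends at the base before the annotated start.
Ctsd, chr7:142387828-142388077, minus strand: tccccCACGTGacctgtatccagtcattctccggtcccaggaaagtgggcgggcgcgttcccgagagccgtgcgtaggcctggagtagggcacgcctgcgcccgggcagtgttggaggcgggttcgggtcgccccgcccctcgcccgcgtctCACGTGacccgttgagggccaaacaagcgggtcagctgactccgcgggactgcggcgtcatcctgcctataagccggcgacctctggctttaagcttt
Ctsc, chr7:88277835-88278084, plus strand: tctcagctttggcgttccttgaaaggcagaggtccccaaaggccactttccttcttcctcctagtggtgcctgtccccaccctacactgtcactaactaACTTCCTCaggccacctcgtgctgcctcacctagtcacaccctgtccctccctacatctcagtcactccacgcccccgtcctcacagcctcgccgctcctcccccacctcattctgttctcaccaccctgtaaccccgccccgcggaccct
Ctss, chr3:95526536-95526785, plus strand: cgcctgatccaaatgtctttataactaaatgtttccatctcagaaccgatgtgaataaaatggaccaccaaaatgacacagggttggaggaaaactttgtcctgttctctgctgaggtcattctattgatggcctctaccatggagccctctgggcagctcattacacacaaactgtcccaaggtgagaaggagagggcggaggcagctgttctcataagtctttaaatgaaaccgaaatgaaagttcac
The Ctsd window held E-boxes that began 245 and 98 bases before the start and 27 CpG dinucleotides. The Ctsc window held the ETS box on the opposite strand and 9 CpGs, and the Ctss window held none of the 3 motifs and 4 CpGs, against a median of 6 CpGs over 32851 mouse promoter windows. The windows not printed held 7 CpGs for Ctsl, 7 for Ctsz, 10 and 6 for Ctsa, 5 and 13 for Lgmn and 8 for Cst3. Ctsz, which like Ctsd stood at 2 levels, held none of the 3 motifs. Any link of motifs or CpGs to the levels was not tested. An E-box was present in 4 of the 10 windows (Ctsd, Ctsl, and 1 window each of Ctsa and Lgmn) and in 6.02% of all windows. For that Lgmn window alone, the bases after its start were not found in a GENCODE M21 transcript of the gene. The other Lgmn window had no E-box. The palindrome was present in 0 of the 10 windows and in 0.24% of all, and the ETS box in 1 of the 10 and in 2.44% of all. These matches are letters in a window and not measured sites.

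All 10 genes passed the filter on low counts in every population. Populations were compared over 33150 genes in edgeR, and a call needed both an adjusted p no greater than 0.05 and a log2 difference of 1 or more in size. Together they took 1.66% ± 0.21 (SD, n = 15) of all counts in CD11b-positive libraries and 1.51% ± 0.18 (n = 16) in double-positive libraries. The share was 0.341% ± 0.059 (n = 17) in ACSA2-positive libraries and 0.267% ± 0.083 (n = 10) in CaMKII positive libraries. The shares of the first pair of populations lay above those of the second pair in every library.

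**Figure D1:**
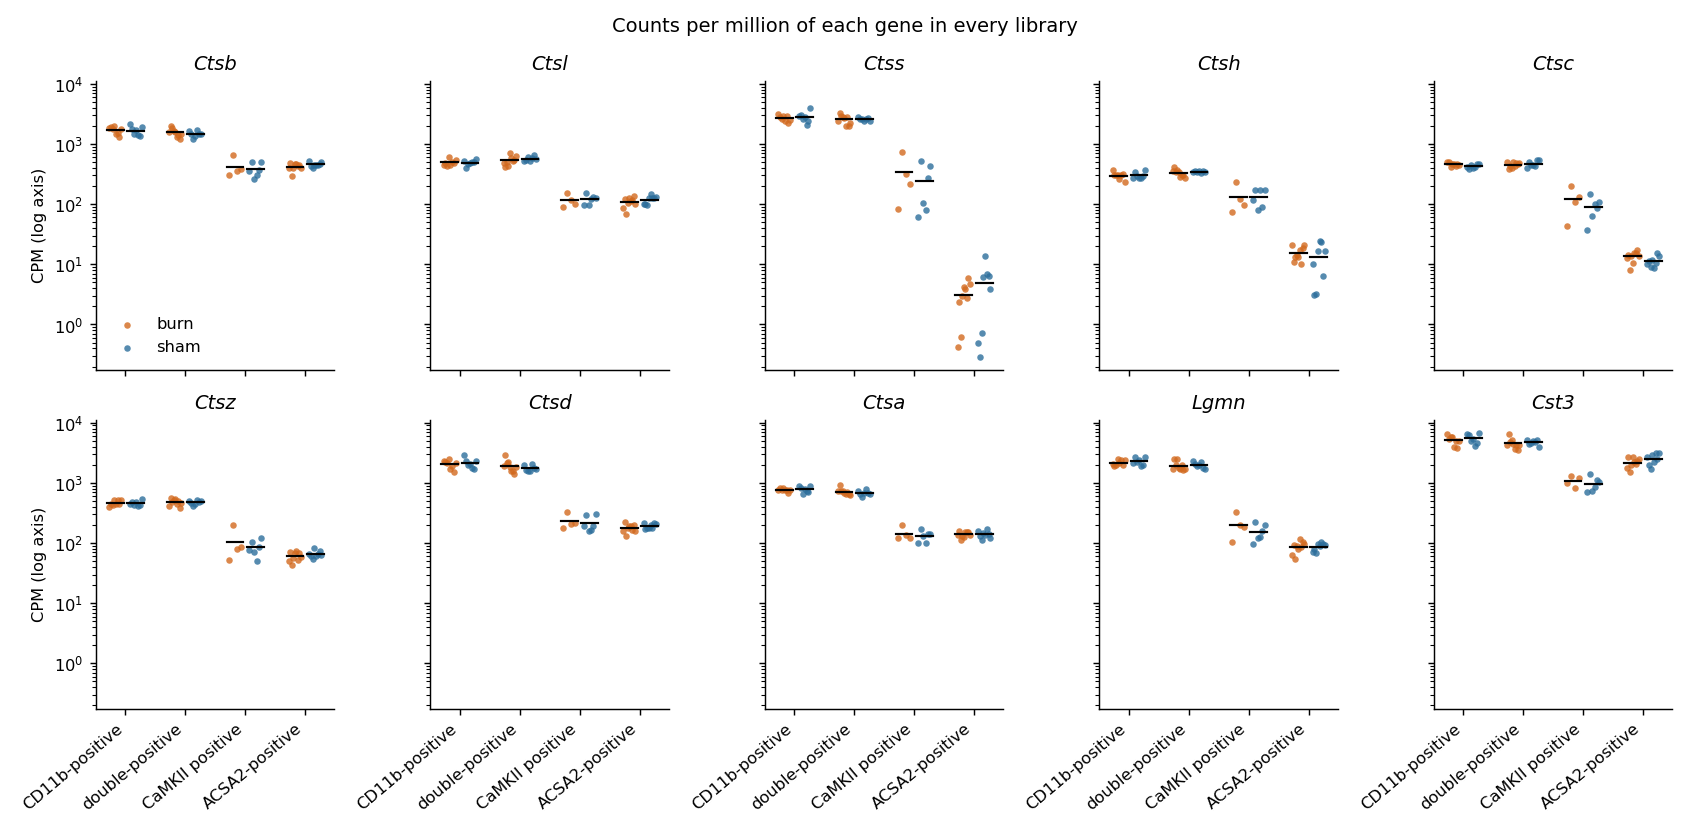
CPM (log axis) of each of the 10 genes in the 58 libraries, by sorted population. Each point is a library, burn in orange and sham in blue, and the bar is the group mean. CD11b-positive and double-positive points share a level for every gene, Ctss, Ctsc and Ctsh drop in steps to the ACSA2-positive libraries, and Cst3 is lowest in the CaMKII positive libraries.

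Ctss (ENSMUSG00000038642, chromosome 3) encodes cathepsin S, which trims the invariant chain during antigen presentation and stays active at neutral pH. Its lowest, median and highest CPM were 2075, 2811 and 3906 in CD11b-positive libraries and 1982, 2624 and 3284 in double-positive libraries. The same values were 62.2, 248 and 728 in CaMKII positive and 0.293, 3.84 and 13.6 in ACSA2-positive libraries. The ranges of CD11b-positive and double-positive libraries overlapped, and those of the other populations lay apart from them and from each other. In edgeR, Ctss was higher in CD11b-positive than in ACSA2-positive libraries by 9.59 ± 0.42 (SE) on the log2 scale (769-fold, adjusted p = 6.80e-29), and lower in ACSA2-positive than CaMKII positive libraries by a log2 difference of 5.95 ± 0.37 (61.7-fold, adjusted p = 3.14e-20). The ACSA2-positive libraries of batches 1 and 2 held 0.293 to 2.96 CPM and those of batch 3 held 2.80 to 13.6 CPM. In batch 3 alone the log2 difference between CD11b-positive and ACSA2-positive libraries was 8.89.

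Ctsc (ENSMUSG00000030560, chromosome 7) encodes cathepsin C, a dipeptidyl peptidase that activates granule serine proteases in myeloid cells. Its CPM ran from 388 through a median of 445 to 500 in CD11b-positive libraries, and from 382 through 456 to 547 in double-positive libraries. In CaMKII positive libraries it ran from 36.7 through 104 to 200, and in ACSA2-positive libraries from 8.10 through 12.8 to 17.4. The first pair of ranges overlapped and the other ranges did not meet them or each other. The log2 difference between CD11b-positive and ACSA2-positive libraries was 5.09 ± 0.15 (34.1-fold, adjusted p = 1.67e-37) and that between CaMKII positive and ACSA2-positive libraries was 2.82 ± 0.15 (7.04-fold, adjusted p = 2.92e-23).

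Ctsh (ENSMUSG00000032359, chromosome 9) encodes cathepsin H, an aminopeptidase. It ran from 236 through a median of 299 to 367 CPM in CD11b-positive and from 268 through 345 to 409 CPM in double-positive libraries. In CaMKII positive libraries the values were 75.4, 119 and 233 CPM, and in ACSA2-positive libraries 3.14, 14.3 and 24.4 CPM. The highest CaMKII positive library came close to the lowest CD11b-positive one, so that Ctsh had the smallest gap of the 10 genes between these populations, 1.32 ± 0.21 on the log2 scale (2.50-fold, adjusted p = 2.56e-07). CaMKII positive exceeded ACSA2-positive libraries by a log2 difference of 3.01 ± 0.20 (adjusted p = 2.73e-19).

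The other cysteine cathepsins stood at 2 levels, a high one in CD11b-positive and double-positive libraries and a low one in the others. Ctsb (ENSMUSG00000021939, chromosome 14), a broad endopeptidase and carboxypeptidase, ran from 1300 through 1742 to 2121 CPM in CD11b-positive, from 1198 through 1466 to 2023 CPM in double-positive, from 260 through 366 to 653 CPM in CaMKII positive and from 299 through 449 to 516 CPM in ACSA2-positive libraries. Ctsl (ENSMUSG00000021477, chromosome 13), a broad endopeptidase, ran from 405 through 484 to 613 CPM, from 408 through 544 to 706 CPM, from 88.5 through 121 to 155 CPM and from 69.5 through 118 to 147 CPM in the same order. Ctsz (ENSMUSG00000016256, chromosome 2), a carboxypeptidase also called cathepsin X, ran from 404 through 450 to 545 CPM, from 385 through 490 to 569 CPM, from 51.0 through 83.0 to 198 CPM and from 42.9 through 63.6 to 81.6 CPM. For these genes the CaMKII positive and ACSA2-positive ranges overlapped and both lay below the other 2 populations. CD11b-positive exceeded ACSA2-positive libraries by log2 differences of 1.87 ± 0.11 for Ctsb, 2.04 ± 0.08 for Ctsl and 2.81 ± 0.12 for Ctsz (adjusted p at most 6.99e-23 in edgeR).

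Ctsd (ENSMUSG00000007891, chromosome 7) encodes cathepsin D, the main aspartic protease of lysosomes. It ran from 1539 through 2132 to 2925 CPM in CD11b-positive and from 1408 through 1779 to 2930 CPM in double-positive libraries. The values were 159, 201 and 330 CPM in CaMKII positive and 132, 181 and 222 CPM in ACSA2-positive libraries. The lower populations overlapped widely and differed by a log2 difference of 0.12 (95% interval -0.14 to 0.38, adjusted p = 0.537). CD11b-positive exceeded ACSA2-positive libraries by 3.43 ± 0.12 on the log2 scale (10.8-fold, adjusted p = 2.80e-33). In the GENCODE M21 annotation 34.4% of the exon bases of Ctsd are shared on the same strand with Gm49369, which had 0 counts in every library.

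Ctsa (ENSMUSG00000017760, chromosome 2) encodes the protective protein that keeps lysosomal beta-galactosidase and neuraminidase stable. It ran from 655 through 767 to 879 CPM in CD11b-positive, from 586 through 676 to 935 CPM in double-positive, from 100 through 132 to 200 CPM in CaMKII positive and from 111 through 138 to 170 CPM in ACSA2-positive libraries. Its ranges fell into the same 2 levels as those of Ctsd. The log2 difference between CD11b-positive and ACSA2-positive libraries was 2.40 ± 0.09 (5.28-fold, adjusted p = 2.63e-32).

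Lgmn (ENSMUSG00000021190, chromosome 12), the asparaginyl endopeptidase, ran from 1916 through 2146 to 2708 CPM in CD11b-positive and from 1636 through 1931 to 2522 CPM in double-positive libraries. It reached 95.9, 172 and 322 CPM in CaMKII positive and 54.7, 90.8 and 115 CPM in ACSA2-positive libraries. The lower ranges overlapped at their edge. CD11b-positive libraries were higher than ACSA2-positive ones by 4.62 ± 0.13 on the log2 scale (24.6-fold, adjusted p = 7.85e-38), and CaMKII positive were higher than ACSA2-positive ones by 0.80 ± 0.13 (adjusted p = 1.19e-06), which is under the fold threshold used for calls.

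Cst3 (ENSMUSG00000027447, chromosome 2), the inhibitor, had another order. It ran from 3819 through 5412 to 6737 CPM in CD11b-positive, from 3493 through 4507 to 6591 CPM in double-positive, from 1498 through 2298 to 3197 CPM in ACSA2-positive and from 693 through 1012 to 1428 CPM in CaMKII positive libraries. The ACSA2-positive range lay between the others and met neither, and Cst3 alone among the 10 genes was higher in ACSA2-positive than in CaMKII positive cells by more than the threshold, with a log2 difference of -1.42 ± 0.14 (CaMKII positive minus ACSA2-positive, adjusted p = 9.41e-13). Its gap between CD11b-positive and ACSA2-positive libraries was 1.10 ± 0.12 on the log2 scale (2.14-fold, adjusted p = 2.04e-12). That gap sat at the fold threshold and was 0.98 in batch 3 alone, so that Cst3 was then no longer called.

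Counts per kilobase of exon (CPM per kb) were used to set the genes beside each other. Exon length took in all annotated exon bases of a gene, from 1266 bases for Cst3 to 6489 for Ctsl. A gene with many annotated bases that are rarely used gets a lower level per kb, so the order and shares depend in part on the annotation. Cst3 had the highest level per kb in every population and in every library of it. It made up 86.4% ± 1.5 (SD, n = 17) of the summed CPM per kb of the 10 genes in ACSA2-positive libraries, 58.5% ± 7.4 (n = 10) in CaMKII positive, 46.1% ± 2.2 (n = 15) in CD11b-positive and 44.7% ± 1.6 (n = 16) in double-positive libraries. Ctss came next in CD11b-positive libraries with 22.5% ± 1.3 and in double-positive libraries with 23.4% ± 1.3, and it was above the gene that followed it, Lgmn, in 15 of 15 and 16 of 16 libraries. In CaMKII positive libraries Ctss took 13.0% ± 6.9, with a range of 5.10 to 24.1%, and was above Ctsd in 7 of 10 libraries, by a median log2 ratio per kb of 1.04 with an SD of 0.94. In ACSA2-positive libraries Ctss took 0.129% ± 0.113 and could not be ordered against its neighbours Ctsh (higher in 12 of 17 libraries) and Ctsc (lower in 9 of 17). The gene next to Cst3 there was Ctsd at 78.6 ± 10.1 CPM per kb, followed by Ctsb at 72.5 ± 8.4, with Ctsd above Ctsb in 16 of 17 libraries. In CD11b-positive libraries the neighbours Lgmn and Ctsd (10 of 15 libraries in that order) and Ctsc and Ctsl (8 of 15) did not differ beyond their spread. Ctsz was above Ctsb in 11 of 15 libraries, by a median log2 ratio per kb of 0.28 with an SD of 0.21, and Ctsa was above Ctsc in all 15.

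**Figure D2:**
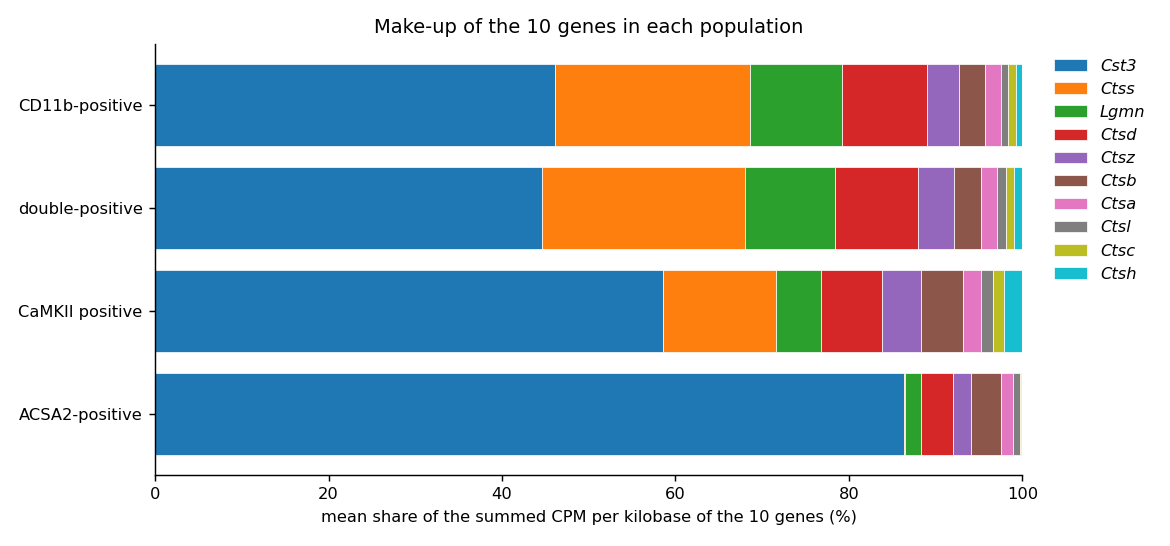
Mean share (%) of each gene in the summed CPM per kilobase of the 10 genes, by population, over 15 CD11b-positive, 16 double-positive, 10 CaMKII positive and 17 ACSA2-positive libraries. Cst3 fills 44.7 to 58.5% of the bar in 3 populations and 86.4% in ACSA2-positive libraries, where Ctss shrinks to 0.129%.

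All 10 genes were called higher in CD11b-positive than in ACSA2-positive libraries, where 21.7% of all genes tested were called in that direction. The median log2 difference of the 10 was 3.12, against -0.24 over all genes. Relative to that median of all genes, the differences ran from 1.34 for Cst3 to 9.83 for Ctss. All 10 were also called higher in CD11b-positive than in CaMKII positive libraries (15.8% of all genes), with log2 differences from 1.32 for Ctsh to 3.82 for Lgmn and a median of 2.48, against -0.20 over all genes. All 10 were called higher in double-positive than in CaMKII positive libraries (17.5% of all genes), and 9 were called higher in double-positive than in ACSA2-positive libraries (23.3% of all genes). Cst3, the exception, differed by 0.91 ± 0.12 (adjusted p = 4.58e-10).

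Between CD11b-positive and double-positive libraries edgeR and DESeq2 each called 0 of the 10 genes, where 7.98% of all genes were called in edgeR. The log2 differences ran from -0.20 for Ctsh to 0.21 for Lgmn, and 1 gene, Ctsl, had an unadjusted p under 0.05 in edgeR (-0.16, 95% interval -0.32 to -0.0021, p = 0.0472, adjusted p = 0.204). The 95% intervals of the other genes lay within -0.56 and 0.68, and the ends of that span came from Ctsh and Ctss. Both values for the microglia genes stand above, 16700 to 27070 and 13440 to 26260 CPM, and their part in these levels was not tested.

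Between CaMKII positive and ACSA2-positive libraries 3 genes were called higher in CaMKII positive libraries (Ctss, Ctsh and Ctsc, where 14.1% of all genes were called) and 1 was called lower (Cst3, 4.34% of all genes). Lgmn and Ctsz (log2 difference 0.36 ± 0.13, adjusted p = 0.0323) were higher and Ctsb (-0.31 ± 0.12, adjusted p = 0.0475) was lower with the adjusted p alone. Lgmn passed under every alternative (adjusted p at most 0.0172). Ctsz did not pass in sham libraries alone (0.13, adjusted p = 0.600), with all deposited libraries (0.40, adjusted p = 0.223), with the mouse as a block (0.29, adjusted p = 0.0871) or in 4 of 17 fits that left out a mouse. Ctsb did not pass with library size alone (-0.13, adjusted p = 0.373), in DESeq2, with its size factors, in batch 3 alone, with all deposited libraries (adjusted p = 0.609) or in 12 of 17 fits that left out a mouse. The values of Ctsa, Ctsl and Ctsd were -0.23, -0.19 and 0.12 and did not pass it, though Ctsd passed with library size alone (0.30, adjusted p = 0.0260) and Ctsa and Ctsl each passed in 2 of 17 fits that left out a mouse. Scaling moved the median of all genes in this comparison from -0.03 with TMM to 0.15 with library size alone, and the sign of Ctsl turned with it.

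**Figure D3:**
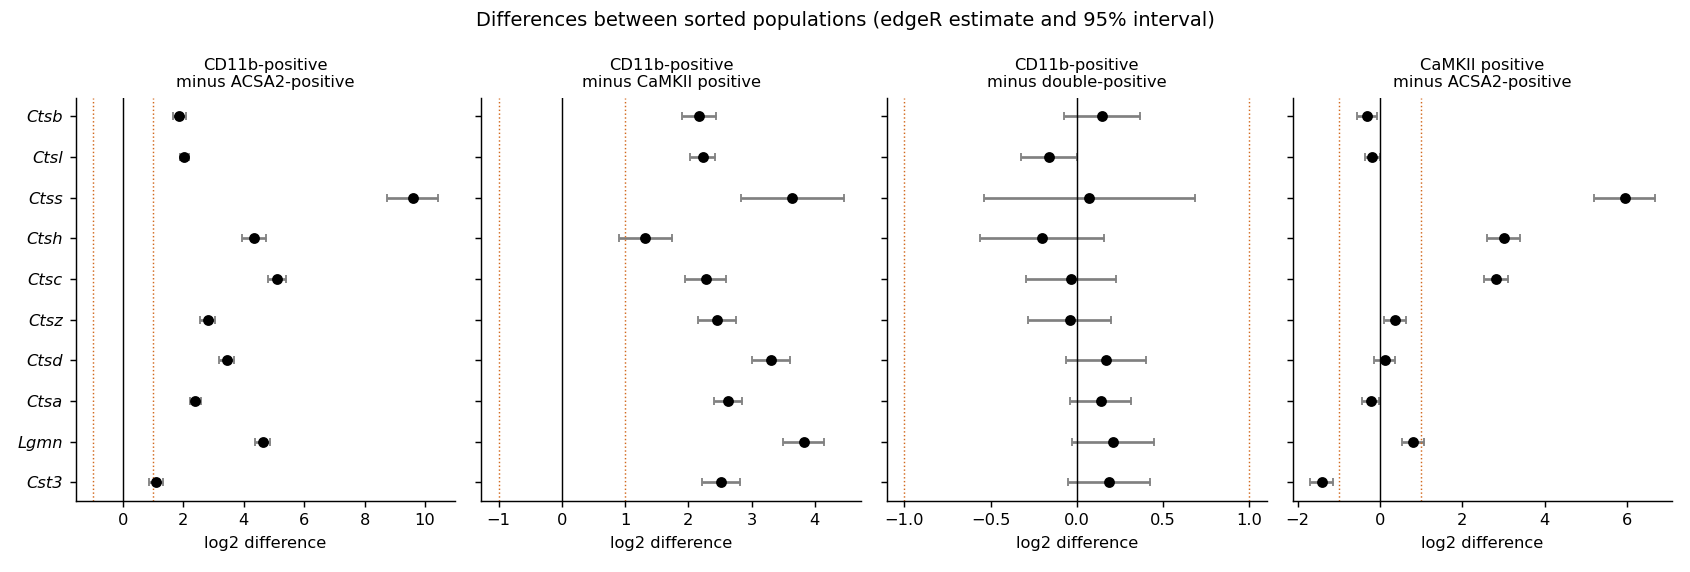
log2 differences of the 10 genes between populations with 95% intervals (edgeR), in 4 comparisons with separate axes. Dotted lines mark an absolute log2 difference of 1. All 10 genes lie right of 1 in the CD11b-positive comparisons with ACSA2-positive and CaMKII positive libraries, all intervals but that of Ctsl include 0 against double-positive libraries, and in the last panel Ctss, Ctsh and Ctsc lie right of 1 and Cst3 left of -1.

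CaMKII positive libraries had the highest coefficient of variation of the 4 populations for 8 of the 10 genes, and ACSA2-positive libraries had it for Ctss and Ctsh. For Ctss it was 86.3% in ACSA2-positive, 78.5% in CaMKII positive, 16.2% in CD11b-positive and 13.3% in double-positive libraries, and for Ctsh 45.4% in ACSA2-positive and 38.6% in CaMKII positive libraries. Ctss stood at 62.2, 81.2, 81.7 and 104 CPM in the lowest CaMKII positive libraries and at 423, 513 and 728 CPM in the highest, and burn and sham libraries were among both. Summed CPM of the 8 microglia genes over the same 10 libraries ran from 319 to 1440. On the log2 scale Ctss followed that sum with Pearson r = 0.908 (permutation test, p = 0.00035, adjusted p = 0.00700 over 20 relations) and Spearman rho = 0.964 (permutation p = 6e-05, adjusted p = 0.0012). Without the 2 libraries farthest from the median r was 0.908, and within the 8 libraries of batch 3 it was 0.961, while batch 1 held only 2. Values for Ctsd (r = 0.868, rho = 0.915), Lgmn (r = 0.867, rho = 0.903) and Ctsa (r = 0.861, rho = 0.855) passed in the same way, each with a Pearson adjusted p of 0.00715 by permutation. Ctsz (r = 0.821), Ctsb (r = 0.803) and Cst3 (r = 0.759) also had adjusted permutation p-values of at most 0.0250, while Ctsc (r = 0.662, adjusted p = 0.0785), Ctsl (r = 0.553, adjusted p = 0.165) and Ctsh (r = 0.404, adjusted p = 0.351) did not. Without the 2 farthest libraries r was 0.870 for Ctsc, 0.721 for Ctsl and 0.662 for Ctsh, so that the lower values of these genes rest in part on those libraries. The Spearman value passed for Ctsc as well (0.830, adjusted permutation p = 0.0144). Over the 7 genes whose r passed, r ran from 0.627 to 0.915 without the 2 farthest libraries and from 0.712 to 0.961 within batch 3.

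The level of Ctss beside the microglia genes was not the same in all populations. It was 12.9% ± 1.4 (SD, n = 15) of their summed CPM in CD11b-positive libraries, 15.0% ± 2.4 (n = 16) in double-positive libraries and 31.0% ± 13.3 (n = 10) in CaMKII positive libraries, where it ran from 12.5 to 50.5%. In ACSA2-positive libraries it was 2.29% ± 1.66 (n = 17). Ctsh had 1.42% ± 0.22 in CD11b-positive and 19.3% ± 12.7 in CaMKII positive libraries. The 9 marker genes of border macrophages and monocytes summed to 12.7 to 208 CPM in CaMKII positive and to 103 to 572 CPM in CD11b-positive libraries, and their part in these ratios was not tested. Over the 17 ACSA2-positive libraries Ctss followed the microglia genes with r = 0.694 and rho = 0.576 (permutation test, adjusted p = 0.00768 and 0.0387). The permutations ran across batches, and Ctss was 0.293 to 2.96 CPM in batches 1 and 2 and 2.80 to 13.6 CPM in batch 3. These p-values therefore do not separate the relation from the batches. Leaving out the 2 farthest libraries gave r = 0.511 and batch 3 alone gave r = 0.595 over 10 libraries, for which no p-value was computed. Ctsl had r = 0.651 there (rho = 0.539, adjusted permutation p = 0.0131 and 0.0567), but r = 0.338 without the 2 farthest libraries, so that this relation rests on them. The other 8 genes had r from -0.022 to 0.427 and did not pass, and within batch 3 their r ran from -0.808 for Ctsc to 0.261 for Ctsh.

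**Figure D4:**
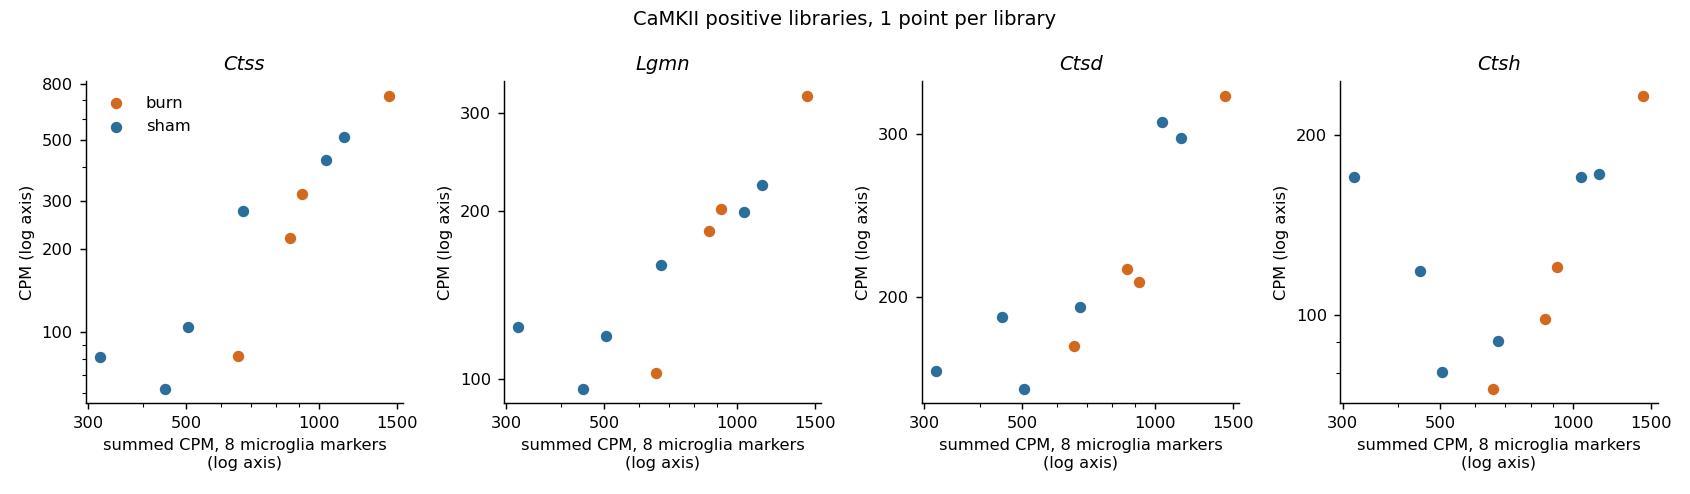
CPM of Ctss, Lgmn, Ctsd and Ctsh (log axes) against the summed CPM of 8 microglia marker genes in the 10 CaMKII positive libraries, burn in orange and sham in blue. Ctss, Lgmn and Ctsd climb with the marker sum (r = 0.908, 0.867 and 0.868), and Ctsh does so less closely (r = 0.404, or 0.662 without the 2 farthest libraries).

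No change with burn injury was detected in any of the 10 genes. In edgeR, with batch in the model, 0 of the 10 genes passed an adjusted p of 0.05 in any population, and the share of all genes called was 0.0% in CaMKII positive, 0.0% in double-positive, 0.0% in ACSA2-positive and 0.0% in CD11b-positive libraries. An unadjusted p under 0.05 was reached by 1 gene in ACSA2-positive libraries (10.7% of all genes there) and by 0 in CaMKII positive (3.9% of all genes), 0 in double-positive (7.01%) and 0 in CD11b-positive libraries (7.81%). DESeq2 also called 0 of the 10 genes in each population, while over all genes it called 3 in CaMKII positive, 2 in double-positive, 27 in ACSA2-positive and 80 in CD11b-positive libraries.

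In CD11b-positive libraries the log2FC (burn minus sham) ran from -0.12 for Cst3 to 0.10 for Ctsc, and 5 of the 10 genes were above 0. Batch 2 held 1 sham library of this population and no burn library, so that library adds nothing to the log2FC once batch is in the model. Ctss ran from 2234 through a median of 2733 to 3180 CPM in the 8 burn libraries and from 2075 through 2811 to 3906 CPM in the 7 sham libraries. Burn values of Ctss lay within the sham range, and its log2FC was -0.06 (95% interval -0.31 to 0.18). Cst3 ran from 3819 through 5200 to 6518 CPM in burn and from 4044 through 5455 to 6737 CPM in sham libraries, which overlapped almost wholly. The 95% intervals of all 10 genes lay between -0.36 and 0.25, the widest bound being that of Cst3, so that a change of 1 on the log2 scale lay outside each of them.

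In double-positive libraries 3 of the 10 genes were above 0 and the log2FC ran from -0.13 for Cst3 to 0.01 for Ctsz. Cst3 ran from 3493 through 4333 to 6591 CPM in the 9 burn libraries and from 3976 through 4798 to 5159 CPM in the 7 sham libraries. The burn range took in the sham range. The 95% intervals of the 10 genes lay between -0.34 and 0.22. Batch 1 held no sham library of this population among those kept. Its 3 burn libraries therefore add nothing to the log2FC once batch is in the model, though they still enter the scaling and the estimate of spread.

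In ACSA2-positive libraries Cst3 had the lowest unadjusted p of the 10 genes. It ran from 1498 through a median of 2261 to 2656 CPM in the 9 burn libraries and from 1708 through 2611 to 3197 CPM in the 8 sham libraries. The burn libraries lay lower, and the groups overlapped over most of their range. In these libraries the astrocyte genes summed to a mean of 40050 CPM in burn and 43600 CPM in sham. The endothelial genes summed to 805 and 492 CPM, and the part of cell make-up in the Cst3 values was not tested. The log2FC was -0.26 ± 0.12 (SE, 95% interval -0.51 to -0.003, 0.837-fold), with p = 0.0476 and adjusted p = 0.462 in edgeR and p = 0.0253 and adjusted p = 0.612 in DESeq2. In batch 3 alone the value was -0.25. Ctss at these low levels could not be placed, with a log2FC of 0.13 (95% interval -0.88 to 1.13). It was -0.77 in batch 3 alone and -0.62 without the batch term, and without burn mouse 11 it was -0.44. Ctsh had 0.39 (95% interval -0.18 to 0.97), -0.12 in batch 3 alone and 0.013 without burn mouse 11. The sham libraries of batch 2 held 3.14 and 3.19 CPM of Ctsh, against 14.3 CPM in the burn library of that batch.

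In CaMKII positive libraries 8 of the 10 genes were above 0, with a median log2FC of 0.19 against 0.02 over all genes tested, and the intervals were wide. Ctsc stood at 43.8, 107, 132 and 200 CPM in the burn libraries and ran from 36.7 through 94.3 to 145 CPM in the 6 sham libraries. Lgmn stood at 102, 184, 202 and 322 CPM in burn and ran from 95.9 through 142 to 223 CPM in sham libraries. Ctss stood at 81.7, 220, 318 and 728 CPM in burn and ran from 62.2 through 190 to 513 CPM in sham libraries. For each of the 3 genes the burn library of mouse 20 was the highest of all and the other burn libraries lay within the sham range.

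The log2FC was 0.49 ± 0.23 for Ctsc (edgeR p = 0.0546, adjusted p = 1.00), 0.44 ± 0.22 for Lgmn (p = 0.0707, adjusted p = 1.00) and 0.57 ± 0.47 for Ctss (95% interval -0.45 to 1.59). Without the burn library of mouse 20 these values were 0.26, 0.20 and 0.07. Leaving it out also turned Ctsb from 0.16 to -0.11, Ctsd from 0.11 to -0.09 and Ctsz from 0.29 to -0.17. That library had the highest sum of the microglia genes of the 10, 1440 CPM, and the sum ran from 656 to 1440 CPM in burn and from 319 to 1142 CPM in sham libraries. The part of these microglia transcripts in the burn values was not tested.

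**Figure D5:**
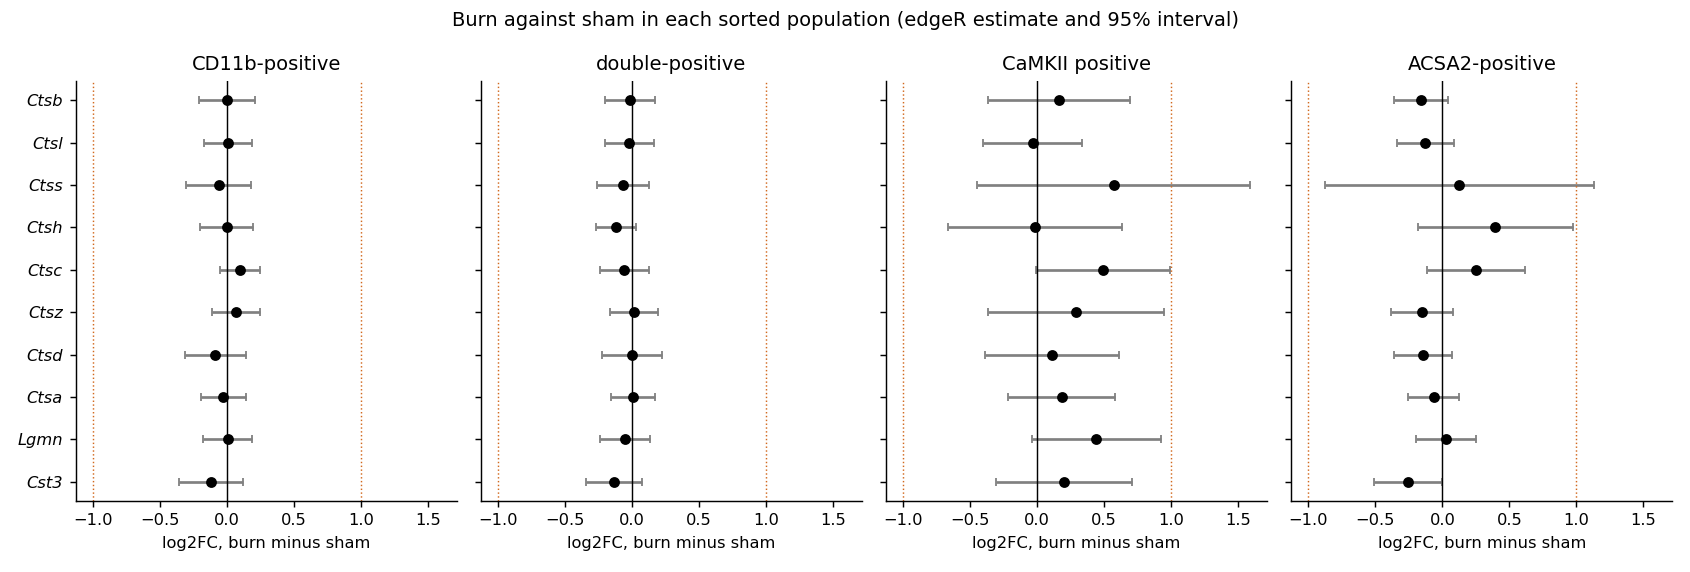
log2FC (burn minus sham) of the 10 genes with 95% intervals in each sorted population (edgeR, batch in the model). Dotted lines mark an absolute log2FC of 1. Intervals stay within -0.36 and 0.25 in CD11b-positive libraries, and in CaMKII positive libraries they reach from -0.67 to 1.59.

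The difference of the burn effect between populations was tested as an interaction in edgeR. Over the 4 populations 0 of the 10 genes passed an adjusted p of 0.05 (0.00905% of all genes passed), and 0 had an unadjusted p under 0.05 (8.01% of all genes). With the mouse as a block, Lgmn had an unadjusted p of 0.0452 (edgeR adjusted p = 1.00). Between CD11b-positive and ACSA2-positive libraries 0 of the 10 passed either threshold (0.0% of all genes passed the adjusted p and 7.79% had an unadjusted p under 0.05). Between CaMKII positive and double-positive libraries 0 of the 10 passed the adjusted p (0.0151% of all genes passed), and 2 had an unadjusted p under 0.05 (6.15% of all genes), namely Ctsc (difference of log2FC 0.55, 95% interval 0.083 to 1.007, adjusted p = 0.694) and Lgmn (0.49, 95% interval 0.055 to 0.924, adjusted p = 0.728). The interaction was not fitted in DESeq2.

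Other lysosomal genes were counted from lists of 83 genes. In CD11b-positive against ACSA2-positive libraries 27 of the 83 were called higher and 14 lower, with a median log2 difference of 0.51. Over all genes tested 21.7% were called higher and 32.1% lower, with a median of -0.24. Laptm5, a membrane protein of phagocyte lysosomes, ran from 2312 to 4777 CPM in CD11b-positive and from 0.209 to 29.9 CPM in ACSA2-positive libraries, which lay far apart (edgeR adjusted p = 3.32e-28). Psap, the precursor of the saposins that help degrade sphingolipids, ran from 1601 to 2658 and from 1087 to 1614 CPM, which met at their edge (0.51 ± 0.10, adjusted p = 4.43e-06), and Tpp1, a tripeptidyl peptidase, ran from 219 to 324 and from 197 to 300 CPM (-0.03 ± 0.08, adjusted p = 0.800). Among the 6 cathepsins outside the 10 genes, Ctso ran from 62.5 to 89.6 CPM in CD11b-positive and from 116 to 176 CPM in ACSA2-positive libraries, a log2 difference of -1.10 ± 0.08 (adjusted p = 9.61e-18). Ctsf, a further cysteine cathepsin, was lower by 0.33 ± 0.09 on the same scale and under the fold threshold (adjusted p = 0.00107). Ctse, Ctsg, Ctsk and Ctsw stayed under 10 CPM in every library. At these low levels Ctse (0.429 to 2.37 CPM in CD11b-positive and 0 to 0.266 CPM in ACSA2-positive libraries, edgeR adjusted p = 1.11e-09), Ctsw (0.409 to 2.53 and 0 to 1.018 CPM, adjusted p = 0.00222) and Ctsg (0 to 1.22 CPM, and 0 in all ACSA2-positive libraries, adjusted p = 0.00473) were called higher in CD11b-positive libraries, and Ctsk was not called. Ctse and Ctsg passed the filter on low counts only through the other populations. Their calls set a low level against libraries at or near 0, and no conclusion is drawn from them. Tfe3, a transcription factor of lysosomal genes, ran from 217 to 367 CPM in CD11b-positive and from 26.5 to 42.0 CPM in ACSA2-positive libraries (2.98 ± 0.08, adjusted p = 1.68e-39).

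Against CaMKII positive libraries, CD11b-positive libraries had 29 of the 83 lysosomal genes called higher and 8 lower (median 0.57), where 15.8% of all genes were called higher and 29.6% lower (median -0.20). In burn against sham the lowest edgeR adjusted p among these genes was 0.458, in ACSA2-positive libraries. An unadjusted p under 0.05 was reached by 2 of 82 genes tested in CaMKII positive, 1 of 82 in double-positive, 2 of 78 in ACSA2-positive and 2 of 82 in CD11b-positive libraries, against 3.9%, 7.01%, 10.7% and 7.81% of all genes. Cd68, a membrane protein of phagocyte lysosomes, stood at 15.0 to 43.2 CPM in burn and 11.5 to 30.2 CPM in sham CaMKII positive libraries (log2FC 0.84 ± 0.32, adjusted p = 1.00), and Laptm5 stood at 84.1 to 466.3 and 51.5 to 278 CPM (0.80 ± 0.36, adjusted p = 1.00). These ranges overlapped. In ACSA2-positive libraries Atp6v0c, a subunit of the proton pump, had -0.20 ± 0.09 and M6pr, a receptor that sorts enzymes to lysosomes, had -0.22 ± 0.09 (adjusted p = 0.458 for both). In CD11b-positive libraries Mcoln1, a lysosomal cation channel, had 0.23 ± 0.10 (adjusted p = 0.639), and Ctsg was listed at 0 in all sham libraries and at up to 1.22 CPM in burn libraries. In double-positive libraries Cst6, a cystatin, stayed under 1 CPM in every library and Gga2, a sorting adaptor, had 0.25 ± 0.12 (adjusted p = 0.716).

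The genes whose log2 CPM ran most like each of the 10 over the 58 libraries were named by Pearson r among 12196 genes, as a description in which the 4 populations supply most of the range. Ctss was most like Mpeg1 (r = 0.996), C1qa and Pik3ap1, and Ctsc most like Aif1 (r = 0.991), Ly86 and Tyrobp, which are genes of myeloid cells. Ctsd was most like Hexa (r = 0.994), and Lgmn most like Grn (r = 0.995), Smap2 and Vsir. Ctsa had Ctsd as its nearest gene (r = 0.992), Ctsb had Abhd12 (r = 0.990), Ctsz had Lgmn (r = 0.991), Ctsh had Anxa3 (r = 0.989) and Ctsl had Rcbtb2 (r = 0.981). Cst3 had the lowest nearest value, 0.947 with B4galt6.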

How the data were processed

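The authors sorted the cells, made stranded total RNA libraries depleted of ribosomal RNA, trimmed reads with fastp, aligned them with STAR, counted them with GenomicAlignments and deposited raw counts per Ensembl gene, 1 table per population, with no normalisation. The build is given as both mm10 and GRCm39, so no gene positions are given from the count tables, and the promoter windows carry the RefSeq positions on GRCm38.p6. Whether counting used strand is not given in the sources used here, and in GENCODE M21 (GRCm38), the source of exon lengths, parts of the exons of Ctsl (26.9% of bases), Ctsa (17.4%) and Ctsb (12.8%) overlap genes on the opposite strand. Normalised values deposited beside the counts were not used, and 0 columns were left without a sample. Batch came from the study's sample table.

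Counts were tested in edgeR 4.0.16 (R 4.3.3) by quasi-likelihood with TMM scaling, on genes with 10 or more counts summed over libraries, with batch in the design and Benjamini-Hochberg adjustment over all genes tested. Burn was compared with sham within each population. Populations (batch and treatment as covariates) and interactions (batch within population) were fitted over the 58 libraries. A standard error is the log2 value divided by the square root of its F. Alternatives were DESeq2 1.42.0, other scalings and filters, no batch term, batch 3 or sham libraries alone, all deposited libraries, leaving out each mouse, and the mouse as a block. CPM used library totals. Correlations used log2 values and 100000 permutations over all libraries of a population, not within batches (scipy 1.17.1). In simulated counts 90% of genes changed by a log2FC of 1 passed the adjusted p in CaMKII positive and 95% in CD11b-positive libraries. The simulation gave every gene the same spread and no batch effect, and it changed only genes with ample counts. It therefore does not give the chance of detecting a change in genes with a wide spread, such as Ctss in CaMKII positive libraries.

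The 10 genes, the lysosomal lists and the marker lists were chosen with earlier results of these data known. Genes named were the 10, the most abundant gene of each lysosomal list, the other cathepsins, the 2 genes of the lists with the smallest unadjusted p under burn in each population and the 3 genes most alike, and a few of these are not reported here. Equal mouse numbers mark the same animal, and deviations of libraries of 1 mouse correlated with medians of 0.0447 to 0.236 over 7397 genes, against -0.0486 to 0.00785 between mice.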

Additional observations from a re-analysis of the deposited data

Results flagged for a closer look

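In each of the 8 groups of libraries the highest and lowest values of the 10 genes were tested for a wide gap to the rest, 80 groups of values in all, and chance alone marks about 1 group in 20. Of these, 2 stood out. Ctsa in the double-positive burn libraries had 935.4 CPM in mouse 7, far above the others. Ctsb in the ACSA2-positive burn libraries had 299.1 CPM in mouse 10, below the others.

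The libraries of mouse 3, a burn mouse left out for skin ulceration, were set beside the sham libraries. Of its 40 values, 7 lay above the highest sham value and 6 below the lowest, and 6 of the 7 were in its double-positive library: 783.1 CPM for Ctsa, 2040 CPM for Ctsb, 554.3 CPM for Ctsc, 2274 CPM for Ctsd, 367.0 CPM for Ctsh and 2853 CPM for Ctss. The other was Ctsc in its CD11b-positive library, at 522.5 CPM. Mouse 3 was sequenced in batch 1, whereas the double-positive sham libraries were from batches 2 and 3, so that those 6 values were compared across batches. Of the 6, only Ctsb and Ctsc also lay above every kept double-positive library (highest 2023 and 546.7 CPM), and the kept libraries reached 935.4 CPM for Ctsa, 2930 CPM for Ctsd, 408.9 CPM for Ctsh and 3284 CPM for Ctss, each in burn mouse 7 of batch 1. The 6 values below the lowest sham library were Ctsl (94.3 CPM), Ctsz (50.9 CPM) and Lgmn (60.6 CPM) in ACSA2-positive, Ctsz (386.9 CPM) and Lgmn (1803 CPM) in CD11b-positive and Lgmn (95.4 CPM) in CaMKII positive cells, and the last 3 of these also lay below every kept library. With 6 to 8 sham libraries per population, a further library falls outside their range fairly often by chance alone. A single library gives no test, and the part of the skin ulceration in these values was not tested.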

How the results depend on the processing

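The main limits are the 4 burn libraries of CaMKII positive cells, their mixed markers, the low Ctss and Ctsh counts of ACSA2-positive libraries, and the 3 batches, in which burn and sham are unevenly spread. Between populations, 474 of 480 values of the 10 genes kept their direction and call under the alternatives, and 1020 of 1020 did with a mouse left out. With the mouse as a replicate block, the pairing of libraries from 1 animal gave 9.65 for Ctss in CD11b-positive minus ACSA2-positive libraries and changed no call of the 10 genes at both thresholds, but the count of all genes called fell from 2647 to 1529 for CD11b-positive minus double-positive libraries. That count was 568 in sham libraries alone and 1056 in batch 3 alone, and CaMKII positive minus ACSA2-positive libraries gave 3879 calls in sham libraries alone against 6104. Cst3 in CD11b-positive minus ACSA2-positive libraries was 0.98 in batch 3 alone, under the threshold. Uncalled values turned sign in CD11b-positive minus double-positive libraries (Ctsc 0.053 with all deposited libraries, Ctsz 0.038 with them and 0.025 in batch 3) and in CaMKII positive minus ACSA2-positive libraries (Ctsd -0.016 in sham libraries, Ctsl 0.0011 with library size). The cause was not tested. Genes with a differing burn effect went from 3 to 0 with the block and 5 in batch 3 over the 4 populations, from 0 to 8 in batch 3 for CD11b-positive minus ACSA2-positive, and from 5 to 0 with the block and 0 in batch 3 for CaMKII positive minus double-positive libraries. Burn calls over all genes, 0 in edgeR, were 3 (CaMKII positive), 2 (double-positive), 27 (ACSA2-positive) and 80 (CD11b-positive) in DESeq2, 14 (double-positive) and 4 (ACSA2-positive) with no filter, and 136 in double-positive libraries with all deposited libraries, where sham mouse 8 and burn mouse 3 both enter and were not separated. None of the 10 genes was called under burn in any of these. Of their burn values, 284 of 320 kept their sign under the alternatives and 515 of 580 with a library left out. Signs turned as follows, with no value called. In CaMKII positive libraries Ctsh was 0.16 in batch 3 and 0.037 with all deposited libraries, and Ctsl 0.039 with the latter. In double-positive libraries all deposited libraries gave 0.45 for Ctsb, 0.40 for Ctsc, 0.30 for Ctsh, 0.38 for Ctsl, 0.40 for Ctss, 0.41 for Lgmn and 0.33 for Cst3. Batch 3 gave -0.018 for Ctsa, -0.071 for Ctsd, 0.054 for Ctsl and -0.0096 for Ctsz there, no batch term 0.081 for Ctsb, and Ctsd was -0.0048 with library size and -0.00044 with filterByExpr. In ACSA2-positive libraries Ctsh was -0.12 and Ctss -0.77 in batch 3, and Ctss -0.62 and Lgmn -0.019 with no batch term. In CD11b-positive libraries Ctsa was 0.024 and Ctsd 0.023 in batch 3. DESeq2, library size, size factors and all deposited libraries gave -0.0093, -0.011, -0.0093 and -0.0049 for Ctsb, -0.0038, -0.0062, -0.0037 and -0.0039 for Ctsl, and -0.0050, -0.0063, -0.0050 and -0.0065 for Lgmn, and Lgmn was -0.074 with no batch term. The difference of the burn effect between CD11b-positive and ACSA2-positive libraries turned for Ctsa (-0.0026 with library size), Ctsh (0.064 in batch 3), Ctss (0.22 with the block, 0.71 in batch 3) and Lgmn (0.043 and 0.022). With 1 library left out, ranges that crossed 0 in CaMKII positive libraries were -0.11 to 0.27 for Ctsb, -0.086 to 0.22 for Ctsd, -0.40 to 0.15 for Ctsh, -0.18 to 0.073 for Ctsl and -0.17 to 0.51 for Ctsz, the lowest each without burn mouse 20. In double-positive libraries they were -0.033 to 0.061 for Ctsa, -0.060 to 0.047 for Ctsb, -0.072 to 0.077 for Ctsd, -0.082 to 0.053 for Ctsl, -0.030 to 0.059 for Ctsz and -0.12 to 0.0035 for Lgmn. In ACSA2-positive libraries they were -0.44 to 0.38 for Ctss and -0.030 to 0.060 for Lgmn. In CD11b-positive libraries they were -0.069 to 0.031 for Ctsa, -0.066 to 0.070 for Ctsb, -0.17 to 0.019 for Ctsd, -0.069 to 0.085 for Ctsh, -0.049 to 0.070 for Ctsl, -0.13 to 0.078 for Ctss and -0.045 to 0.073 for Lgmn. The mean CPM of the 10 genes moved by more than 1 SD only in double-positive sham libraries with mouse 8 included, for instance to 2273 for Ctss and 4124 for Cst3.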

Other observations

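The double-positive library of mouse 8, left out for its 331215 counts, listed 0 counts for 8 of the 10 genes, while Ctsh had 9 counts and Ctsl 22 counts.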
